A study of Mus musculus with 16 samples.

Results

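Protein folding and quality control in the endoplasmic reticulum (ER) were followed in mouse liver RNA through 10 genes: Hspa5, Hsp90b1, Dnajb9, Xbp1, Herpud1, Pdia4, Calr, Sdf2l1, Creld2 and Hyou1. They were taken by symbol from a deposited expression table of 35275 gene IDs, and all 10 were found. All 10 were also among the 11298 genes that passed a filter on low values (at least 1 FPKM in at least 4 libraries). FPKM is the fragment count of a gene divided by its length and by the total count of the library. The series holds 16 liver libraries in 4 groups of 4. They come from mice in which Zfp36l1 was intact (WT) or deleted in the liver (LKO), each on a control diet or on a diet with ethanol. The ZFP36L1 protein attaches to AU-rich messenger RNAs and speeds their decay. The allele and Cre driver behind the deletion, and the strain, sex, age, diet composition and feeding time, are not given in the sources used here. The sources also do not say that the libraries of a group come from separate animals, so p-values measure the spread between these libraries. Libraries are named by group and a number from 1 to 4 in record order, and no source says that equal numbers share an origin.

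Secreted and membrane proteins fold in the ER, and liver cells, which secrete most plasma proteins, carry a large ER. When unfolded proteins build up there, 3 sensors in the ER membrane start the unfolded protein response: ATF6 is cut into a transcription factor, IRE1 splices Xbp1 messenger RNA so that it codes for an active factor, and PERK slows translation while favouring that of ATF4. ATF6 and spliced XBP1 raise chaperones, folding enzymes and the parts that send misfolded proteins to the proteasome, whereas ATF4 raises genes of amino acid supply, redox balance and cell death. Among the 10 genes, Hspa5 encodes BiP, the main Hsp70 chaperone of the ER. Dnajb9, Sdf2l1 and Hyou1 encode partners of BiP, Hsp90b1 the Hsp90 chaperone of the ER, Calr a chaperone of glycoproteins, and Pdia4 and Creld2 proteins of disulfide formation. Herpud1 encodes a membrane protein of ER-associated degradation, and Xbp1 the transcription factor. Gene-level FPKM does not separate spliced from unspliced Xbp1. In whole liver, fewer cells of a type and less RNA per cell cannot be told apart.

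One library stood apart. WT ethanol library 2 had 9884479 reads, recovered from the steps of its FPKM values, whereas the other 15 had 19069828 to 24768501. Mitochondrial transcripts took 22.5% of its reads and 3.64% to 6.97% of the reads elsewhere, and across genes it correlated with the others at a Spearman rho of 0.664 to 0.721. It lay below all other 15 libraries for 52.3% of the genes kept and for 8 of the 10 ER genes (all but Calr and Creld2). The ethanol differences in WT are therefore given with all 16 libraries and without this one. Among the other 15 libraries, a first principal component of the deviations from the group means took 40.0% of the within-group variance and put libraries 1 and 2 of each group (library 1 alone in WT ethanol) on one side and libraries 3 and 4 on the other. The labels name no batch, and the basis of this split is not known. Zfp36l1 itself was 9.30 to 25.5 FPKM in WT and 0.572 to 1.76 FPKM in LKO libraries. Hepatocyte markers (6 of 6 detected) summed to 41830 FPKM or more in every library. That sum hid opposite moves in WT ethanol library 2, where it was 61770 FPKM with Apoa1 at 34500 FPKM. Alb, Cps1 (36.5 FPKM, median 676 FPKM) and Tat were at their lowest there, and Apoa1 and Serpina1c at their highest. In WT ethanol library 2 cholangiocyte markers (5 of 5 detected) summed to 75.0 FPKM (66.4 FPKM of it Spp1) against 10.8 to 28.6 FPKM elsewhere, endothelial markers (6 of 6) to 12.1 FPKM against 32.5 to 102 FPKM, and stellate cell markers (6 of 6) to 16.3 FPKM against 38.2 to 164 FPKM, and their part in its values was not tested. Of the stellate markers, Lrat, Dcn (4.56 FPKM, median 87.0 FPKM) and Col3a1 were at their lowest there, whereas Reln (4.78 FPKM) and Des (5.08 FPKM) were at their highest. Of 6 markers of acinar pancreas, an ER-rich neighbouring tissue, Cpa1, Prss2 and Amy2a5 were at 0 in all 16 libraries, Pnlip and Ctrb1 were at 0 in 14 each, and Cela1 was at 7.21 to 27.0 FPKM. Their sum was 9.40 to 16.6 FPKM in WT control, 7.21 to 13.3 FPKM in WT ethanol, 17.4 to 27.0 FPKM in LKO control and 8.04 to 17.8 FPKM in LKO ethanol, and its part in the results was not tested.

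Promoter sequence is shown because the regulators of these genes are known to act through short motifs near the start site. Of the 10 genes, 9 had an entry in the RefSeq promoter set (GRCm38.p6); Hyou1 did not. The ER stress response element (ERSE) was searched as CCAAT and CCACG with any 9 bases between them, and the related ERSE-II as ATTGG and CCACG with any 1 base between them, on both strands from 250 bases before to 50 after the start. ERSE was found in 4 of the 9 (Hspa5, Hsp90b1, Calr, Creld2) and in 0.119% of all 32817 promoters of the set. ERSE-II was found in Herpud1 alone among the 9 and in 0.0366% of all promoters. The 5 stretches with a match cover the 170 bases before the start site, 5′ to 3′ on the gene's strand, and capitals mark the ERSE, the ERSE-II and any other CCACG on either strand. They lie at chr2:34771920-34772089 (Hspa5, plus strand), chr10:86705445-86705614 (Hsp90b1, minus), chr8:84846932-84847101 (Calr, minus), chr15:88819476-88819645 (Creld2, plus) and chr8:94386259-94386428 (Herpud1, plus).
Hspa5: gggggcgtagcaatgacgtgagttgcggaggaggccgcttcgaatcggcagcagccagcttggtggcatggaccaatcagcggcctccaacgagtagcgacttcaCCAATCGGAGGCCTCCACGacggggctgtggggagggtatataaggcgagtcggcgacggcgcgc
Hsp90b1: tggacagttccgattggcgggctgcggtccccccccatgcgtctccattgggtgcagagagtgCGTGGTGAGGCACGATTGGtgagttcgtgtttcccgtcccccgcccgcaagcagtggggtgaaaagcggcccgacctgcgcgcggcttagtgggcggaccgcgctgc
Calr: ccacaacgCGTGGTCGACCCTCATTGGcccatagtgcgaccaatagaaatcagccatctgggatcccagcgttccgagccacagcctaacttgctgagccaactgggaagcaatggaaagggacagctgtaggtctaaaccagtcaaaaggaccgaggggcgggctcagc
Creld2: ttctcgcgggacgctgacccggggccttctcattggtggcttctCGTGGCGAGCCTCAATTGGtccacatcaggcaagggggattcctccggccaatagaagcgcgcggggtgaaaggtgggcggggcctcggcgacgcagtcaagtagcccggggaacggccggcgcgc
Herpud1: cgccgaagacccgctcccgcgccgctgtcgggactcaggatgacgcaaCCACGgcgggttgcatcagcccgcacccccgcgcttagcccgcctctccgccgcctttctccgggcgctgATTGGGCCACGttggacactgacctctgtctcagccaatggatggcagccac
In Hspa5 the ERSE began 65 bases before the start, in Hsp90b1 107, in Creld2 126 and in Calr 162 bases before it. Hsp90b1 had a further ERSE 212 bases before the start, outside the stretch shown. The ERSE-II of Herpud1 began 52 bases before its start. Dnajb9, Xbp1, Pdia4 and Sdf2l1 held neither motif in this window. The XBP1 core TGACGTGG was in 0 of the 9 promoters and in 0.676% of all. The shorter pieces are common: CCACG alone was in 32.8% of all promoters and CCAAT in 37.4%. These matches describe letters only.

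Across the 4 groups, 2 of the 10 genes separated the ethanol from the control libraries of the LKO mice, beside 12.3% of all genes: Hspa5 was higher on ethanol and Herpud1 lower. No gene of the 10 separated LKO from WT on the control diet, where 9.25% of all genes did. The measure tested was log2(FPKM + 1), with limma over all 11298 genes and Benjamini-Hochberg adjustment, with calls made where the adjusted p was below 0.05. With all 16 libraries, limma called 0 of the 10 in each of the 5 contrasts, against 4.18% of all genes for ethanol in WT, 0.425% for ethanol in LKO, 0.00885% for LKO against WT on the control diet, 0.0797% for the same genotypes on ethanol and 0.0% for the interaction, the ethanol difference in LKO minus that in WT. At an unadjusted p under 0.05 stood 1 gene for ethanol in WT (Herpud1, beside 19.7% of all genes), 1 for ethanol in LKO (Herpud1, 9.19%), 0 for genotype on the control diet (3.45%), 1 for genotype on ethanol (Xbp1, 11.9%) and 0 for the interaction (3.20%). A voom fit on the recovered reads also called 0 of the 10 in each contrast.

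With WT ethanol library 2 left out, limma called 1 of the 10 for ethanol in LKO (Herpud1, lower), against 3.62% of all genes, and 4 (Herpud1, Hspa5, Xbp1 and Dnajb9) had an unadjusted p under 0.05, beside 19.0% of all genes. In that fit 0 of the 10 were called for ethanol in WT, where 9.48% of all genes were called and 0 of the 10 had an unadjusted p under 0.05, beside 26.3% of all genes. For genotype on the ethanol diet 0 of the 10 were called against 0.221% of all genes, and 1 (Herpud1) had an unadjusted p under 0.05, beside 17.1% of all genes. With a further term for the 2 sides of the within-group split, 2 of the 10 were called for ethanol in LKO (Herpud1 lower, Hspa5 higher), against 10.7% of all genes, and 5 (these and Xbp1, Dnajb9 and Creld2) had an unadjusted p under 0.05, beside 27.4%. In that fit 0 of the 10 were called for ethanol in WT (19.7% of all genes), for genotype on the control diet (0.0797%), for genotype on ethanol (1.58%) and for the interaction (0.0%). An unadjusted p under 0.05 was found for Herpud1 and Pdia4 for ethanol in WT, beside 35.8% of all genes, for Herpud1 for genotype on ethanol (26.6%) and the interaction (8.50%), and for 0 of the 10 for genotype on the control diet (17.1%). The sides were read from these same values, so the term takes within-group spread out of the fit by construction. With all libraries, 0 of the 10 had groups without overlap for ethanol in WT (10.1% of all genes) and for genotype on ethanol (2.69%). Without library 2, 1 of 10 did not overlap for ethanol in WT (Dnajb9, higher; 20.7% of all genes) and 1 of 10 for genotype on ethanol (Herpud1, lower; 7.03%). Within the sides, without library 2, groups apart in the same direction on both sides were counted as well. For ethanol in WT they were 3 of 10 (Hspa5 and Dnajb9 higher, Pdia4 lower; 37.1% of all genes) and for ethanol in LKO 4 (Hspa5, Xbp1 and Creld2 higher, Herpud1 lower; 24.8%). For genotype they were 0 on the control diet (24.1%) and 4 on ethanol (Pdia4, Calr and Hyou1 higher, Herpud1 lower; 17.1%), and WT ethanol has 1 library on the first side.

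**Figure D1:**
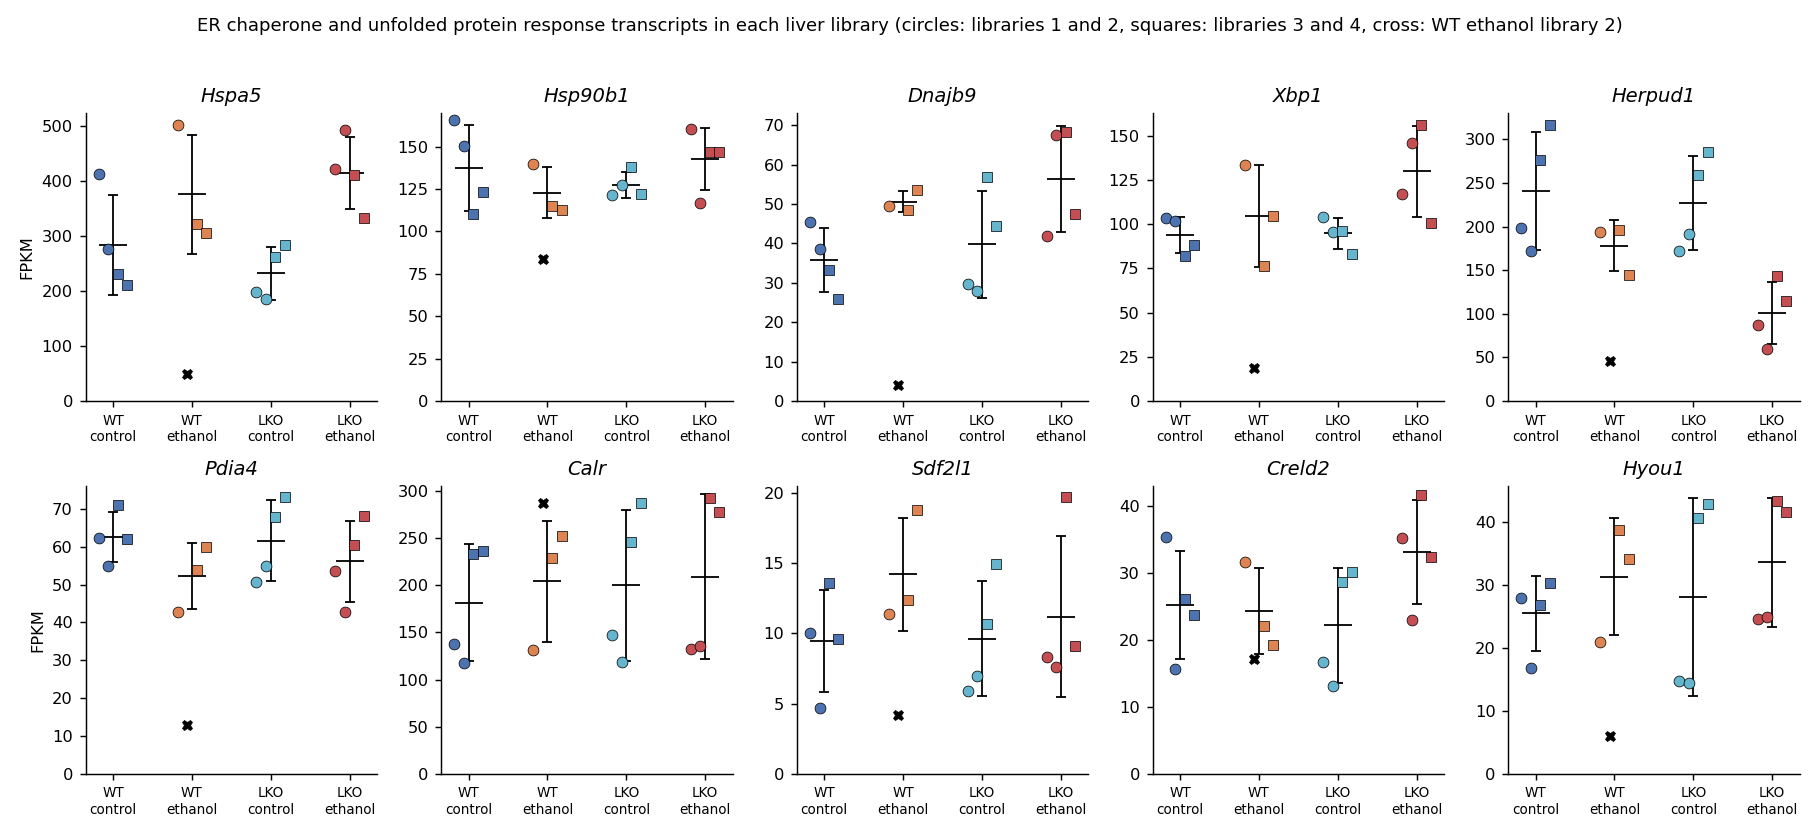
FPKM of the 10 ER genes in each of the 16 libraries, by group, with 1 panel a gene. Circles are libraries 1 and 2, squares libraries 3 and 4, the cross is WT ethanol library 2, and bars give the group mean ± SD (without that library in WT ethanol, n = 3, otherwise n = 4); the LKO ethanol libraries of Herpud1 (60.0 to 143 FPKM) sit below all LKO control libraries (172 to 286 FPKM).

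Hspa5 (chr2:34771970-34777547, GRCm38, plus strand) encodes BiP, which binds unfolded stretches of new proteins and holds the 3 sensors inactive. It was at 413, 277, 231 and 210.2 FPKM in WT control libraries 1 to 4, and at 501, 48.9, 321 and 306 FPKM in WT ethanol libraries 1 to 4. In LKO it was at 198, 185, 262 and 285 FPKM on the control diet and at 422, 493, 410 and 332 FPKM on ethanol. All 4 LKO ethanol libraries were above all 4 LKO control libraries, while the WT groups overlapped. Within each side of the split the ethanol libraries were above the control libraries in LKO and, with library 2 left out, also in WT. The group means were 232 ± 48.3 FPKM in LKO control and 414 ± 66.1 FPKM in LKO ethanol (SD, n = 4). The log2 difference was 0.84, with an SE of 0.51 and a limma adjusted p of 0.703 in all 16 libraries, and an SE of 0.24 and an adjusted p of 0.0647 without WT ethanol library 2. With the side term as well, the adjusted p was 0.0244. The library left out belongs to neither LKO group, so only the shared estimate of the spread changed and not the difference. In WT the log2 difference was -0.30 (SE 0.51, limma adjusted p = 0.782) with all libraries and 0.42 (SE 0.26, adjusted p = 0.318) without library 2.

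Dnajb9 (chr12:44205559-44210326, minus strand) encodes ERdj4, an Hsp40 partner that helps BiP keep IRE1 silent. It was at 45.4, 38.5, 33.4 and 26.01 FPKM in WT control and at 49.6, 4.17, 48.5 and 53.6 FPKM in WT ethanol. In LKO it was at 29.8, 27.8, 56.8 and 44.5 FPKM on the control diet and 42.0, 67.4, 68.2 and 47.5 FPKM on ethanol. The 3 WT ethanol libraries other than library 2 lay close together (50.6 ± 2.68 FPKM, SD, n = 3) and above all 4 WT control libraries (35.8 ± 8.20 FPKM, SD, n = 4), whereas the LKO groups overlapped. On the log2 scale the ethanol difference in WT was -0.32 with library 2 and 0.51 without it (SE 0.26, limma adjusted p = 0.226). In LKO it was 0.52 (SE 0.24, adjusted p = 0.254 without library 2, and 0.921 with all libraries).

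Hyou1 (chr9:44379490-44392369, plus strand), which encodes a large Hsp70-like protein that drives nucleotide exchange on BiP, varied more between libraries of a group than between groups. It ranged from 16.9 to 30.4 FPKM in WT control, from 5.95 to 38.8 FPKM in WT ethanol (20.9 to 38.8 FPKM without library 2), from 14.4 to 42.9 FPKM in LKO control and from 24.6 to 43.4 FPKM in LKO ethanol. The log2 ethanol difference of Hyou1 in WT was -0.27 with library 2 and 0.27 without it (limma adjusted p = 0.797 and 0.698), so its direction turned on that library. The LKO difference was 0.38 (adjusted p = 0.946 with all libraries and 0.632 without library 2). Sdf2l1 (chr16:17130138-17132383, minus strand) encodes a small partner of BiP and had the lowest median level of the 10. Its libraries ranged from 4.69 to 13.6 FPKM in WT control, 4.20 to 18.8 FPKM in WT ethanol, 5.87 to 14.9 FPKM in LKO control and 7.57 to 19.7 FPKM in LKO ethanol. These ranges overlapped in all contrasts, and the log2 difference for ethanol in WT was 0.20 with library 2 and 0.58 without it (limma adjusted p = 0.822 and 0.331). Sdf2l1 rested on 46 to 491 recovered reads a library, the fewest of the 10, so counting error weighs most there.

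Hsp90b1 (chr10:86690209-86705509, minus strand) encodes GRP94, which folds receptors and integrins among other clients. It varied little between groups, at 137 ± 25.2 FPKM in WT control, 113 ± 22.9 FPKM in WT ethanol (123 ± 15.03 FPKM without library 2, n = 3), 127 ± 7.71 FPKM in LKO control and 143 ± 18.3 FPKM in LKO ethanol (SD, n = 4). The range over the 15 libraries was 110.2 to 166 FPKM, and the group ranges overlapped in every contrast. Its log2 ethanol difference in WT was -0.28 with library 2 and -0.15 without it (limma adjusted p = 0.539 and 0.638), and in LKO it was 0.16 (adjusted p = 0.971 with all libraries and 0.680 without library 2). In the annotation used here (GENCODE M21) Hsp90b1 overlaps a pseudogene on the opposite strand and 2 non-coding genes on its own strand. Whether the counting used strand is not given, so their reads cannot be told apart.

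Calr (chr8:84841850-84846934, minus strand) encodes calreticulin, a calcium-binding chaperone that holds glycoproteins by their sugars. It was at 138, 118, 233 and 237 FPKM in WT control, and at 131, 288, 229 and 252 FPKM in WT ethanol. In LKO it was at 147, 119, 246 and 287 FPKM on the control diet and at 132, 135, 292 and 277 FPKM on ethanol. Libraries 3 and 4 of every group, and WT ethanol library 2, stood above libraries 1 and 2 of the other groups and WT ethanol library 1, so the spread lay within the groups. The log2 ethanol difference of Calr in WT was 0.32 with library 2 and 0.18 without it (limma adjusted p = 0.693 and 0.810), and in LKO it was 0.058 (adjusted p = 1.0 and 0.960).

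Pdia4 (chr6:47796141-47813430, minus strand) encodes ERp72, a protein disulfide isomerase with several thioredoxin domains. It was at 62.5 ± 6.62 FPKM in WT control, 42.4 ± 20.9 FPKM in WT ethanol, 61.6 ± 10.6 FPKM in LKO control and 56.2 ± 10.7 FPKM in LKO ethanol (SD, n = 4). WT ethanol library 2 held 12.9 FPKM of Pdia4, and the 3 other WT ethanol libraries held 42.9 to 60.0 FPKM, which overlapped WT control at 54.8 to 71.0 FPKM. The ethanol difference in WT was -0.74 with that library and -0.26 without it (limma adjusted p = 0.275 and 0.426), and in LKO it was -0.14 (adjusted p = 0.995 with all libraries and 0.763 without library 2).

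Creld2 (chr15:88819646-88826683, plus strand) encodes an ER protein with disulfide isomerase activity. Its WT libraries were at 35.4, 15.7, 26.2 and 23.8 FPKM on the control diet and at 31.6, 17.2, 22.2 and 19.3 FPKM on ethanol. Its LKO libraries were at 16.8, 13.05, 28.7 and 30.2 FPKM on the control diet and at 35.3, 23.0, 41.6 and 32.5 FPKM on ethanol. In LKO the ethanol libraries were higher within libraries 1 and 2 and within libraries 3 and 4, but the groups as a whole overlapped. The log2 difference in LKO was 0.61 (SE 0.32, limma adjusted p = 0.621 with all libraries; SE 0.29 and adjusted p = 0.272 without WT ethanol library 2), and in WT it was -0.14 with library 2 and -0.027 without it (adjusted p = 0.844 and 0.966).

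Herpud1 (chr8:94386438-94395377, plus strand) encodes a ubiquitin-like membrane protein that assembles the complex passing misfolded proteins to the proteasome. It was at 199, 172, 276 and 317 FPKM in WT control and at 194, 46.4, 196 and 145 FPKM in WT ethanol. In LKO it was at 172, 192, 259 and 286 FPKM on the control diet and at 87.8, 60.0, 143 and 114 FPKM on ethanol. Every LKO ethanol library was below every LKO control library and below 3 of the 4 WT ethanol libraries, and within each side of the split the LKO diets also did not overlap. Group means were 227 ± 53.8 FPKM in LKO control and 101 ± 35.6 FPKM in LKO ethanol (SD, n = 4). The log2 difference was -1.20, with an SE of 0.41 and a limma adjusted p of 0.291 in all 16 libraries. Without WT ethanol library 2 it was called, as Herpud1 fell by 1.20 (SE 0.27, adjusted p = 0.0249), and with the side term the adjusted p was 0.00291. With that term it was 0.104 for ethanol in WT (-0.49) and 0.0602 for genotype on ethanol (-0.78). A fit of the 2 LKO groups alone gave an adjusted p of 0.0552. Leaving out each library in turn from all 16 gave -0.98 to -1.39 for this difference.

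In WT the difference in Herpud1 was -0.88 (SE 0.41, limma adjusted p = 0.251) with library 2 and -0.40 (SE 0.29, adjusted p = 0.409) without it. On the ethanol diet LKO was below WT by -0.39 (adjusted p = 0.741) with all libraries. Without WT ethanol library 2 that difference was -0.87 (SE 0.29, adjusted p = 0.186), and the groups, 60.0 to 143 FPKM in LKO and 145 to 196 FPKM in WT, then did not overlap. The interaction for Herpud1 was -0.32 (SE 0.58, adjusted p = 0.938) with all libraries and -0.80 (SE 0.40, adjusted p = 0.968) without that library, so the ethanol difference was not shown to differ between genotypes. Herpud1 overlaps an antisense gene, Gm15890, and reads of the 2 cannot be told apart without strand.

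**Figure D2:**
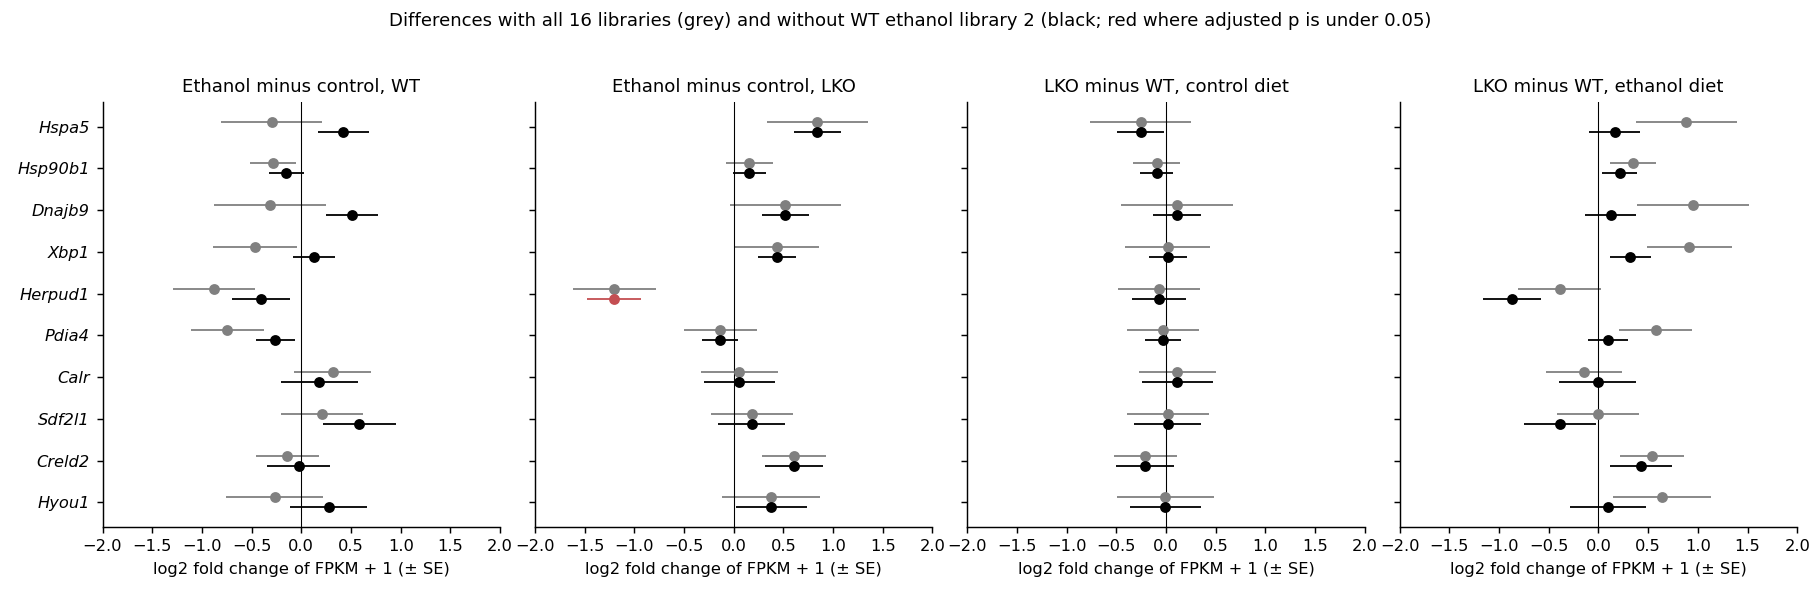
Log2 differences of FPKM + 1 for the 10 ER genes in 4 contrasts of diet or genotype, as points with the SE of the limma fit. Grey marks all 16 libraries and black the fit without WT ethanol library 2, and red marks an adjusted p under 0.05, which only Herpud1 for ethanol in LKO reached (-1.20).

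Xbp1 (chr11:5520659-5525893, plus strand), the transcription factor, was at 103, 102, 82.3 and 88.6 FPKM in WT control and at 134, 18.9, 76.2 and 105 FPKM in WT ethanol. In LKO it was at 104, 95.7, 96.1 and 83.4 FPKM on the control diet and at 117, 146, 156 and 101 FPKM on ethanol. Of the LKO ethanol libraries, 3 exceeded all LKO control libraries and library 4 did not, but within each side of the split the LKO diets did not overlap. The log2 ethanol difference of Xbp1 in WT was -0.47 with library 2 and 0.13 without it (limma adjusted p = 0.582 and 0.745), so its direction turned on that library. In LKO the difference was 0.43 (SE 0.43, limma adjusted p = 0.902 with all libraries; SE 0.19 and adjusted p = 0.234 without WT ethanol library 2). Between genotypes on ethanol it was 0.92 (SE 0.43, adjusted p = 0.414) with library 2 and 0.32 (SE 0.21, adjusted p = 0.411) without it.

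As a set of 10, the median log2 difference for ethanol in LKO was 0.28, beside 0.06 over all genes tested, with 8 genes above 0 and 2 below. For ethanol in WT the median was -0.29 beside -0.02 over all genes, and without library 2 it was 0.15 beside 0.17, with 6 genes above 0 and 4 below. For genotype on the control diet it was -0.02 beside -0.10 over all genes, with a range of -0.26 (Hspa5) to 0.11 (Dnajb9), all at a limma adjusted p of 1.0 with all libraries. On ethanol the genotype median was 0.56 beside -0.03 over all genes, and 0.11 beside -0.23 without library 2. The comparisons share groups, so these medians are not independent of each other. For the interaction the median was 0.63 beside 0.09 (without library 2, 0.12 beside -0.12), and the lowest adjusted p among the 10 was 0.927. Hspa5 had the largest interaction with all libraries, at 1.14 (SE 0.72), and it was 0.42 (SE 0.35) without library 2.

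The ratio of Hspa5 to Herpud1 within each library is given as a description, chosen after the values were seen. Hspa5 over Herpud1 was 2.08, 1.61, 0.837 and 0.664 in WT control libraries 1 to 4, and 2.59, 1.05, 1.64 and 2.11 in WT ethanol. It was 1.15, 0.963, 1.01 and 0.996 in LKO control, and 4.81, 8.23, 2.87 and 2.91 in LKO ethanol. Every LKO ethanol library had a higher ratio than the other 12 libraries. Against LKO control this was fixed by the choice of genes, since there Hspa5 was higher and Herpud1 lower on ethanol without overlap. The LKO control libraries spread little (1.03 ± 0.083, SD, n = 4), whereas WT control split between libraries 1 and 2 and libraries 3 and 4. Since it is taken within a library, the ratio does not depend on how libraries were scaled to each other.

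**Figure D3:**
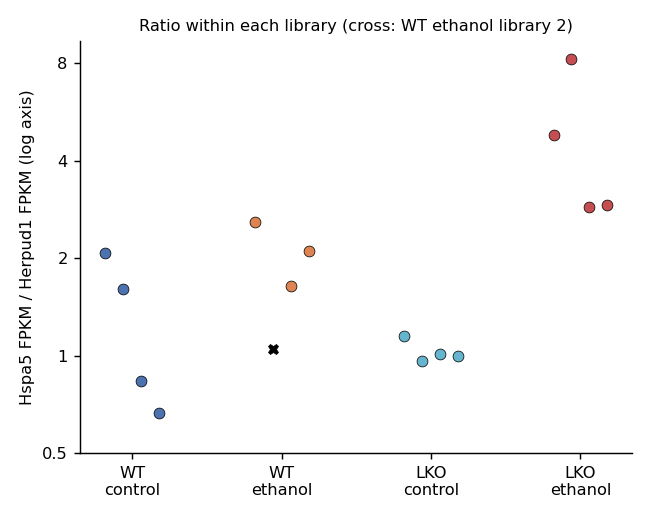
Hspa5 FPKM divided by Herpud1 FPKM in each of the 16 libraries, on a log axis, by group and in library order; the cross is WT ethanol library 2. The LKO ethanol libraries lie between 2.87 and 8.23, and all others between 0.664 and 2.59.

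The genes differed in how they followed the split of libraries 1 and 2 from libraries 3 and 4 within groups. Over the 15 libraries, Calr was 118 to 147 FPKM in the 7 libraries of the first side and 229 to 292 FPKM in the 8 of the second, with a mean log2 deviation 0.95 higher on the second side. Hyou1 was 0.83 higher there, Sdf2l1 0.67, Herpud1 0.52 and Pdia4 0.34. Hspa5 and Xbp1 went the other way, with -0.23 each, and Hsp90b1 with -0.13, while Dnajb9 (0.11) and Creld2 (0.26) lay between. Hspa5 was lower on the second side in 3 groups and higher in 1, LKO control (262.0 and 284.5 FPKM against 198.4 and 184.9 FPKM). Hepatocyte marker sums were 65910 to 72380 FPKM on the first side and 41830 to 63170 FPKM on the second, and mitochondrial transcripts took 4.70% to 6.97% and 3.64% to 4.75% of the reads, higher on the first side in 4 of 4 groups. The part of either in these differences was not tested.

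**Figure D4:**
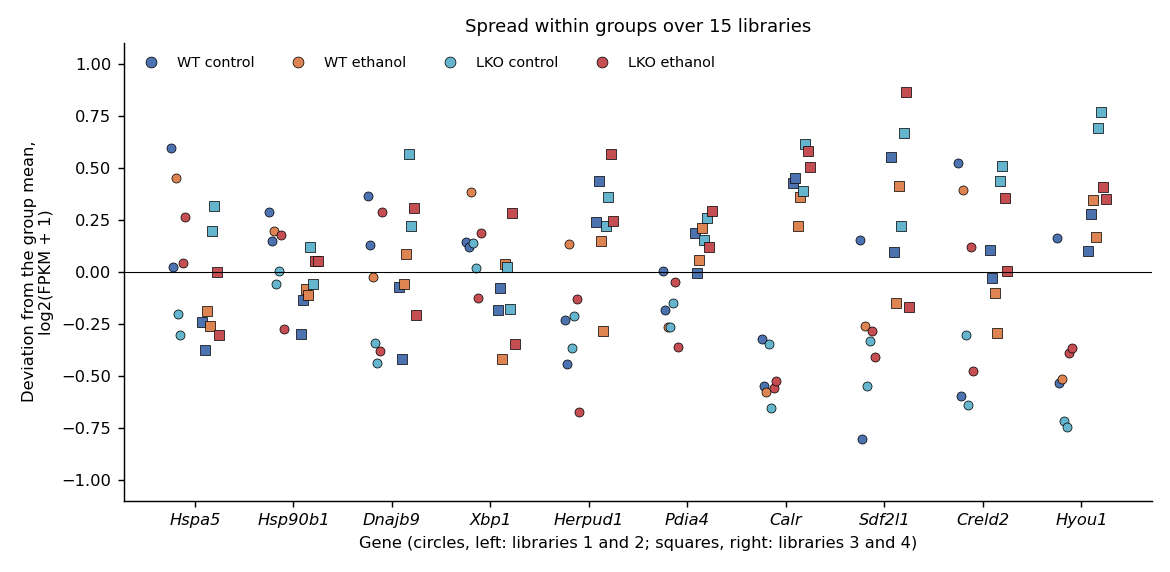
Deviation of log2(FPKM + 1) from the group mean for the 10 ER genes in the 15 libraries other than WT ethanol library 2, with 1 point a library, coloured by group. Circles, on the left of each gene, are libraries 1 and 2 and squares are libraries 3 and 4; all squares of Calr and Hyou1 lie above 0, and all circles below it except 1 of Hyou1.

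Within each side, Hspa5 varied together with Hyou1, Dnajb9 and Creld2. Pearson correlations of the deviations are given per side, over 7 and 8 libraries that share group means and depth, as a description. The deviations are from group means over both sides, so a group above its mean on the first side lies below it on the second. The r values of a pair on the sides are therefore not independent, and offsets between groups remain within a side. Hspa5 with Hyou1 had r of 0.82 and 0.89, Hspa5 with Dnajb9 0.79 and 0.83, and Hspa5 with Creld2 0.77 and 0.87. Pooled over the 15 libraries, Hspa5 with Hyou1 had an r of only 0.068. Hspa5 with Herpud1 had 0.21 and 0.26 within the sides, and Xbp1 with Pdia4 -0.56 and -0.14. Of the 45 pairs, 37 (82.2%) were above 0 on both sides, with a median of 0.39 on each. Over all pairs of the 11298 genes, 52.0% were above 0 on both sides, with medians of 0.27 and 0.20.

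The 10 protein-coding genes outside the set whose deviations were most like the mean of the 10 ER genes were ranked from 10553 genes over the 15 libraries. That mean followed Hyou1 (r of 0.90 with it) and Sdf2l1 (0.87) closely, but Hspa5 (0.32), Hsp90b1 (0.12) and Xbp1 (-0.083) little. Syvn1, the ubiquitin ligase Hrd1 of ER-associated degradation, came first with a Pearson r of 0.87 (0.82 and 0.69 within the sides). Rab18, a small GTPase of lipid droplets and the ER, followed with 0.86 (0.72 and 0.84). Gda and Trabd had 0.83 each, Erc1 0.82, Tnk2 0.82, Zbtb20 0.82, Il6ra 0.81, and Tomm40 and Egfr 0.80 each. The within-side values of these 8 ranged from 0.43 (Erc1) to 0.80 (Zbtb20) on the first side and from 0.45 (Zbtb20) to 0.85 (Erc1) on the second. Here too the values of the sides are not independent of each other.

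Other genes of the pathway were read from 9 lists of 114 genes, of which 110 passed the filter. The PERK and ATF4 list (12 genes) held all the calls made with 16 libraries: limma called 4 of its 12 genes higher for ethanol in WT and 0 lower (4 of 110 over all lists, beside 4.18% of all genes), with a list median of 0.86 beside -0.02 over all genes. The list did not move as 1: for ethanol 9 of its genes were above 0 and 3 below in WT, and 9 above and 3 below in LKO. Atf3, a stress-induced transcription factor, rose from 0.317 to 0.972 FPKM in WT control to 1.38 to 16.3 FPKM in WT ethanol (8.83 to 16.3 FPKM without library 2), by 2.36 on the log2 scale (SE 0.51, limma adjusted p = 0.0174). Trib3, a pseudokinase that restrains ATF4, rose by 2.10 (SE 0.51, adjusted p = 0.0284), from 2.42 ± 1.08 to 16.8 ± 13.3 FPKM (SD, n = 4). Ddit3, which encodes the death-linked factor CHOP, rose by 1.49 (SE 0.31, adjusted p = 0.0137), from 7.70 ± 1.31 to 24.4 ± 9.50 FPKM. Nupr1, a stress-induced chromatin protein, rose by 1.88 (SE 0.28, adjusted p = 0.00365), from 0.805 ± 0.564 to 5.51 ± 1.11 FPKM. Without library 2 the WT ethanol means were 20.7 ± 13.2 FPKM for Trib3, 19.9 ± 3.05 FPKM for Ddit3 and 5.07 ± 0.843 FPKM for Nupr1 (SD, n = 3). In LKO the same 4 genes differed by 1.94, 0.97, 0.92 and 0.99 with adjusted p of 0.116, 0.621, 0.27 and 0.165, and the interaction, 0 of 110 called, did not separate the genotypes (adjusted p of 0.927 to 0.936 for the 4).

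Without WT ethanol library 2, limma called 11 of the 110 genes higher for ethanol in WT and 0 lower (9.48% of all genes were called), of which 6 were on the PERK and ATF4 list. The others were Atf6, the sensor (0.64, adjusted p = 0.0266), Ero1a, the oxidase that recharges protein disulfide isomerases (0.70, 0.0183), Ube2g2 of ER-associated degradation (0.71, 0.0489), Stt3b, a catalytic subunit of N-glycosylation (0.77, 0.0147), and Rcn2, a calcium-binding protein (0.79, 0.0213). For ethanol in LKO it called 4 of 110 higher and 0 lower, beside 3.62% of all genes. They were Ero1a (0.89, adjusted p = 0.00678), Atf3 (1.94, 0.00933), Stt3b (0.71, 0.0269) and Atf4, a gene named after its value was seen (0.81, 0.0297). For genotype, 0 of 110 were called on either diet, with 2 (control diet, beside 9.60% of all genes) and 12 (ethanol diet, 17.1%) at an unadjusted p under 0.05. With the side term as well, 19 of 110 were called higher and 2 lower for ethanol in WT (19.7% of all genes), 9 higher and 5 lower for ethanol in LKO (10.7% of all genes), 1 lower for genotype on ethanol (1.58%), and 0 for genotype on the control diet and the interaction. With all libraries 0 of 110 were called outside ethanol in WT, with 7 for ethanol in LKO, 0 and 8 for genotype on the control and ethanol diet, and 2 for the interaction at an unadjusted p under 0.05, shares at or below those of all genes given earlier.

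**Figure D5:**
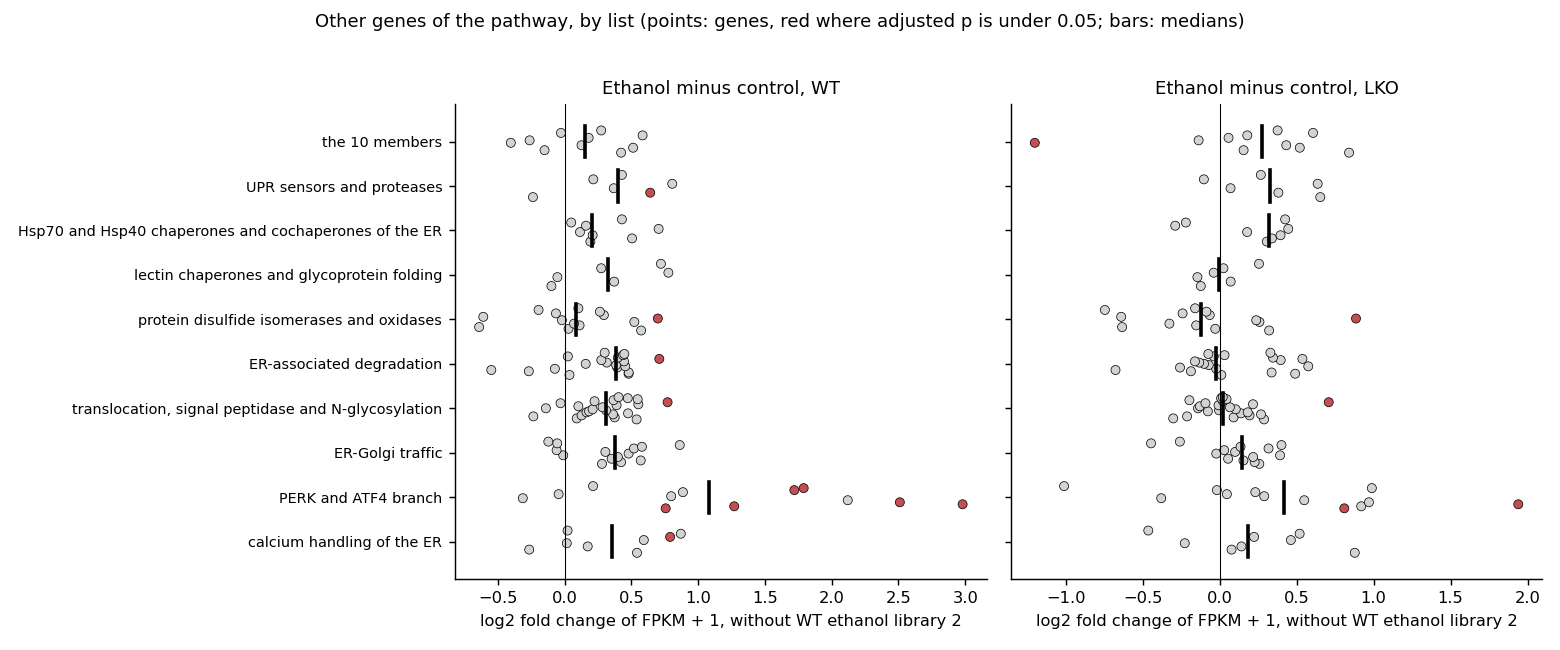
Log2 differences for the 10 ER genes (top row) and the 110 other pathway genes by list, for ethanol in WT and in LKO without WT ethanol library 2; each point is a gene, bars are list medians and red marks an adjusted p under 0.05. The PERK and ATF4 list has medians of 1.08 in WT and 0.42 in LKO.

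The medians of the other 8 lists lay closer to that of all genes, which was 0.17 for ethanol in WT without library 2 and 0.06 in LKO. In WT the 8 further Hsp70 and Hsp40 chaperones and cochaperones had a median of 0.20, the 6 lectin chaperones and glycoprotein folding genes 0.32, the 14 disulfide isomerases and oxidases 0.09 and the 19 genes of ER-associated degradation 0.39. In LKO those medians were 0.32, -0.01, -0.12 and -0.02. The 6 sensors and proteases had 0.40 in WT and 0.33 in LKO, the 23 genes of translocation and N-glycosylation 0.31 and 0.02, the 14 of ER to Golgi traffic 0.38 and 0.14, and the 8 of calcium handling 0.36 and 0.18.

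ER-rich secretory cells other than hepatocytes were also read: plasma and B cell markers (6 of 6 detected) summed to 10.4 to 22.5 FPKM in WT control, 4.68 to 9.18 FPKM in WT ethanol, 16.3 to 24.0 FPKM in LKO control and 6.25 to 15.2 FPKM in LKO ethanol. In each genotype all ethanol libraries were below all control libraries, beside 10.1% of all genes in WT and 12.3% in LKO without overlap in either direction. In LKO Herpud1 had the same direction without overlap, and Hspa5 had the opposite one. Jchain was at 0 in 1 library and Mzb1 in 2, and the part of these markers in the results was not tested. Macrophage and Kupffer cell markers (6 of 6) summed to 53.5 to 315 FPKM, with ranges that overlapped between all groups.

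Since Zfp36l1 binds AU-rich messenger RNA, the 7-mer TATTTAT was searched in annotated 3′ untranslated regions (GENCODE M21). It was found in 1 of the 10 genes, Hyou1, and in 29.1% of the 10529 kept genes with such a region. The median region was 1112 bases over those genes, and the regions of the 10 ran from 247 (Creld2) to 1434 bases (Hspa5). The shares were not matched for length. The site in Hyou1 starts at base 51 of a region of 1319 bases, with the 7-mer in capitals.
Hyou1 site: taccacctcTATTTATtatacatca
Hyou1 differed between LKO and WT by -0.01 on the control diet and 0.64 on ethanol (SE 0.49, limma adjusted p = 1.0 and 0.636), and by 0.10 on ethanol without library 2 (SE 0.38, adjusted p = 0.897). Herpud1 and Hspa5, with regions of 622 and 1434 bases, had no match.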

How the data were processed

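Liver RNA was sequenced in 16 libraries, 4 in each of 4 groups taken from the labels. The authors deposited FPKM values per gene and library. Per the submitters' processing notes, fastp, STAR 2.6.1, HTSeq and DESeq2 were named, with build mm10; the annotation and strandedness are not given in the sources used here. Within a gene the deposited FPKM values moved in steps of 1 read, and 100% of the values of 20520 genes lay within 0.1 of a whole read, which gave reads and totals; no read counts were used in the main test.

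Genes with FPKM of at least 1 in at least 4 libraries (11298) were tested as log2(FPKM + 1) with limma 3.58.1 in R 4.3.3 (group means over 16 libraries, eBayes with trend, two-sided), adjusted by Benjamini-Hochberg. The pseudocount understates changes of low genes. Symbols and positions came from GENCODE M21 (GRCm38), which named 34490 of 35275 gene IDs. The members and lists were chosen with earlier results of these data known, so no list is independent support. Named genes were all members, at most 4 per list and contrast type, and the 10 genes of most like pattern. Scripts were tested on simulated data. Alternatives were another pseudocount (0.1), no filter, other scalings, array weights, another variance model, fewer groups, each library left out and a side term. A voom fit on recovered reads was chosen after seeing the data and called 340 genes for ethanol in WT, 49 for ethanol in LKO, 1 and 5 for genotype on the control and ethanol diet and 0 for the interaction.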

Additional observations from a re-analysis of the deposited data

Results flagged for a closer look

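A library far from the other 3 of its group was found for 2 of the 40 gene and group combinations tested by Dixon's criterion for 4 samples, and chance gives about 1 in 20. Dnajb9 in WT ethanol library 2 was at 4.17 FPKM, while the other libraries of that group were at 48.5 to 53.6 FPKM; it is the library that stood apart for most genes. Sdf2l1 in LKO ethanol library 3 was at 19.7 FPKM, while the others were at 7.57 to 9.11 FPKM.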

How the results depend on the processing

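The number of ER genes called was 0 of 10 under most alternatives. For ethanol in LKO it was 2 (Herpud1, Hspa5) with array weights and 2 without WT ethanol library 2 and with the side term, and 0 to 1 when 1 library was left out. For LKO against WT on ethanol it was 2 with array weights (Xbp1 higher, Herpud1 lower); these weights were lowest for WT ethanol library 2, at 0.0418. The count over all genes moved more. For ethanol in WT it was 283 with no filter, 765 with median of ratios scaling, 932 with quantile normalization, 4334 with array weights, 58 with only the groups compared, 2229 with library 2 left out and the side term together, and 146 to 1071 leaving 1 library out (main 472). Of the calls, 292 were higher and 180 lower in the main fit, 379 and 386 with median of ratios scaling, and 470 and 462 with quantile normalization. They were more one-sided with array weights (3539 and 795), without WT ethanol library 2 (817 and 254) and with the side term as well (1698 and 531). For ethanol in LKO the same alternatives called 18, 122, 105, 869, 248, 1206 and 6 to 409 (main 48). For genotype on the control diet the count was 2 with quantile normalization, 260 with array weights, 13 with only the groups compared, 9 with library 2 out and the side term together, and 1 to 5 leaving 1 library out (main 1). On ethanol it was 3 with no filter, 3465 with array weights, 3 with only the groups compared, 178 with library 2 out and the side term together, 5 with voom and 1 to 387 leaving 1 library out (main 9). For the interaction it was 506 with array weights and 0 to 6 leaving 1 library out (main 0). When 1 library was left out, the highest counts for both ethanol contrasts and for genotype on the control diet came without WT ethanol library 2, and those for genotype on ethanol and the interaction without WT ethanol library 1, which also gave 940 for ethanol in WT; the causes were not tested.

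Of 1240 values of single ER genes under alternatives, 77 had the direction turned, in 23 of 50 results, and no turned value passed the threshold. For ethanol in WT, array weights gave 0.16 (Hspa5), 0.41 (Dnajb9) and 0.57 (Hyou1), and the side term without library 2 gave 0.46 (Hspa5), 0.49 (Dnajb9), 0.17 (Xbp1) and 0.13 (Hyou1). For ethanol in LKO, median of ratios scaling gave -0.0165 (Calr) and array weights 0.0118 (Pdia4). For genotype on the control diet, median of ratios scaling moved the median of all genes from -0.103 to 0.000632 and gave 0.0401 (Hsp90b1), 0.0631 (Herpud1), 0.10 (Pdia4) and 0.12 (Hyou1), quantile normalization -0.0335 (Xbp1) and 0.0271 (Hyou1), and array weights -0.13 (Dnajb9), -0.0439 (Calr) and -0.0903 (Sdf2l1). For genotype on ethanol, Sdf2l1 was 0.00423 with a pseudocount of 0.1 and 0.0329 with median of ratios scaling, Hyou1 -0.0869 with array weights and Calr 0.15 with library 2 out and the side term together, which also gave Calr 0.0388 for the interaction.

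Leaving out 1 library at a time turned the direction of several differences, the largest in the main fit being Xbp1 for ethanol in WT (-0.47). For ethanol in WT the ranges were -0.69 to 0.42 (Hspa5), -0.62 to 0.51 (Dnajb9), -0.79 to 0.13 (Xbp1), -0.0624 to 0.58 (Sdf2l1), -0.34 to 0.0351 (Creld2) and -0.57 to 0.27 (Hyou1). For ethanol in LKO they were -0.16 to 0.26 (Calr) and -0.11 to 0.40 (Sdf2l1). For genotype on the control diet they were -0.193 to 0.00222 (Hsp90b1), -0.0746 to 0.26 (Dnajb9), -0.0452 to 0.0755 (Xbp1), -0.22 to 0.0745 (Herpud1), -0.12 to 0.0572 (Pdia4), -0.0914 to 0.33 (Calr), -0.25 to 0.20 (Sdf2l1), -0.41 to 0.00598 (Creld2) and -0.27 to 0.24 (Hyou1). For genotype on ethanol they were -0.39 to 0.0402 (Calr) and -0.39 to 0.26 (Sdf2l1), and for the interaction -0.41 to 0.24 (Sdf2l1). Hspa5 and Herpud1 for ethanol in LKO kept their direction under every alternative run. No fit paired or blocked by a replicate number was run, since no 2 libraries share a number in the labels; the side term is a block read from the data. The title numbers of 5 of the 8 control libraries are followed by that of an ethanol library of the same genotype, each time the one with the same library number. No label says whether such numbers pair animals, and no fit took such a pairing into account. Depth limits Sdf2l1 most, at 46 reads in WT ethanol library 2.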
